A study of Gallus gallus with 8 samples.

Results

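The cell cycle and DNA replication genes described here are the 130 genes, of 13427 in the deposited FPKM table, whose gene names begin with MCM, ORC, CDC, CDK, RFC or KIF and a digit, or with CCNA, CCNB, CCND, CCNE, CENP, BUB, AURK, POLA, POLD or POLE. The rule uses names alone, so some members only share a name with the cell cycle genes. Livers came from 21-day-old broiler chickens (Gallus gallus). The LPS group had received 1 mg/kg body weight of lipopolysaccharide (LPS), an endotoxin from the bacterial outer membrane that triggers inflammation, by intraperitoneal injection 2 h earlier, and the control group the same volume of phosphate-buffered saline. Fragments of polyadenylated RNA were sequenced as they were (input) or after immunoprecipitation (IP) with an antibody against N6-methyladenosine (m6A), a modified base of messenger RNA, with 2 libraries in each of the LPS input, control input, LPS IP and control IP groups. Whether replicate libraries stand for separate birds is not in the labels, so the p-values reflect no more than the spread of these libraries.

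A dividing cell first licenses its replication origins: the origin recognition complex (ORC) and CDC6 load the ring-shaped MCM helicase onto DNA in G1. Cyclin-dependent kinases (CDKs) and their cyclins then start DNA synthesis by the polymerases with their clamp and clamp loader, and later drive mitosis, in which kinetochores, checkpoint kinases and kinesin motors move the chromosomes. Most hepatocytes of an adult liver are quiescent, whereas a growing liver still holds dividing cells.

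RNA levels are those of the 4 input libraries in FPKM (fragments per kilobase of transcript, scaled to the library's mapped fragments), a unit that already divides by length. The step between the lowest values gave depths of 0.818, 0.891 and 0.858 for LPS library 1, LPS library 2 and control library 2, relative to control library 1, and absolute depth is unknown. Tests compared log2(FPKM + 1) with limma for 9484 genes whose input mean reached 1 FPKM, and a gene was called at a Benjamini-Hochberg adjusted p under 0.05 over all of them. A gene high in 1 group alone can reach this mean through that group, and the shares of falls and rises include such genes. Over all tested genes the median log2 fold change lay at −0.34, so more genes were lower than higher after LPS. With the libraries shifted to equal medians it was −0.06, and counts are given on that scale too. Among marker genes, 5 of 7 listed for macrophages were found and all 5 fell (limma), and their summed FPKM was 215 to 224 in LPS and 488 to 523 in control libraries. Of 6 tested hepatocyte markers, FGB and TF rose, TTR fell and ALB, APOA1 and SERPINC1 were not called (limma). Their summed FPKM was 67840 to 68300 in LPS and 58330 to 62050 in control libraries. Summed B cell markers were at 11.6 to 12.9 in LPS and 15.3 to 18.7 in control libraries, with 1 fall among 4 tested. Summed T and NK cell markers were at 35.6 to 38.9 and 31.9 to 43.6, with 1 fall among 6 tested. For heterophils 2 of 5 listed markers were found, with sums of 7.53 to 11.2 in LPS and 4.54 to 8.35 in control libraries. For thrombocytes 3 of 4 were found, with sums of 17.3 to 19.1 in LPS and 7.635 to 11.0 in control libraries. Of the 2 tested, ITGB3 rose and TUBB1 fell (limma). For erythrocytes 2 of 6 were found, with sums of 380.7 to 527 in LPS and 360 to 364.5 in control libraries. These sums rest on HBBA, matched by a synonym to the gene named HBG2, which was not called. HBZ was not tested, and was above 0 only in control library 2 (0.168 FPKM). No marker found for any type was at 0 in all libraries. The part of any such cell population in the results was not tested, and in bulk tissue fewer cells of a type and less RNA per cell cannot be told apart.

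The falls in LPS liver took in the MCM2 to MCM6 genes of the helicase, the tested subunits of the origin recognition complex, 4 centromere proteins, the checkpoint kinase BUB1 and the kinase CDK18, while the polymerase gene POLE rose. Of the 130 members, 89 were tested, and 42 fell, 7 rose and 40 were not called. Falls made up 31.4% and rises 10.7% of all tested genes, against 47.2% and 7.87% of the members. At equal medians 24 of the 89 tested members were lower and 9 were higher, where 15.9% of all tested genes were lower and 14.2% higher. The median log2 fold change of the members was −0.59. Both LPS libraries lay below both control libraries for 62 of the 89, a share of 69.7%, where 55.8% of all tested genes did so. The difference between the members and the other genes was not tested.

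**Figure D1:**
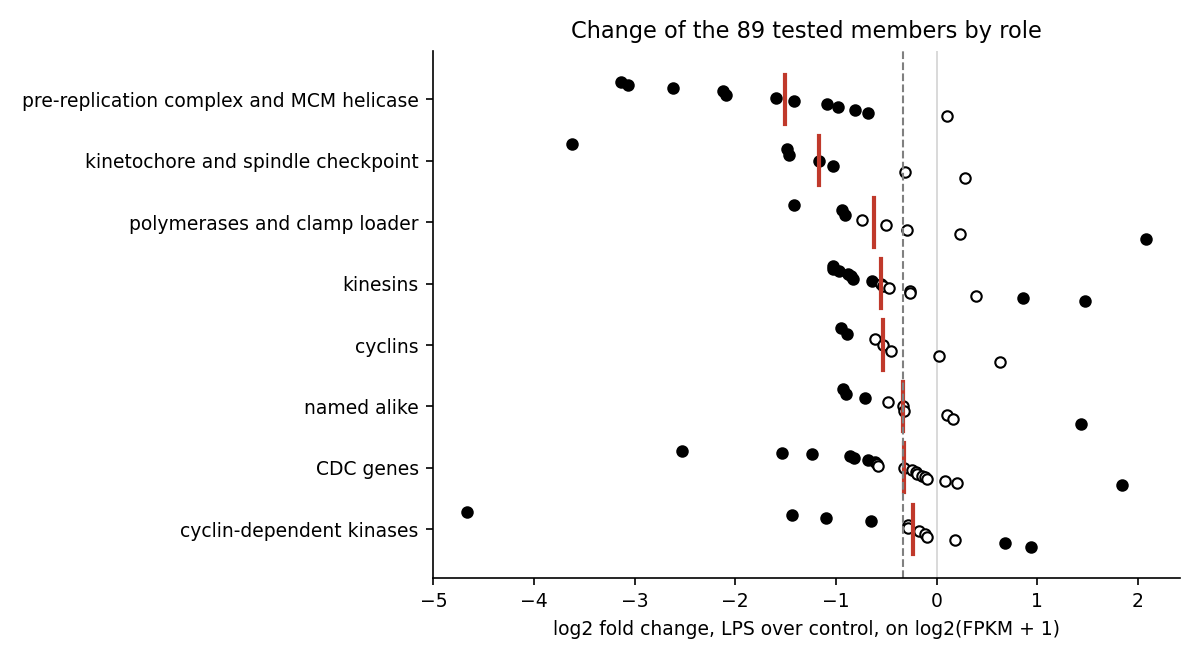
Log2 fold change (LPS over control, on log2(FPKM + 1), horizontal axis) of each of the 89 tested members, by role. Filled points were called (limma adjusted p under 0.05), open points were not, red bars are the median of a role and the dashed line is the median of all tested genes, −0.34. Pre-replication genes and kinetochore genes lie farthest left, and the role of cyclin-dependent kinases holds CDK18 at −4.66.

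The licensing genes gave the most uniform result. Of the 12 tested genes of the pre-replication complex and MCM helicase, 11 fell, 0 rose and MCM8 was not called, and 8 were lower and 0 higher at equal medians. Their median log2 fold change was −1.51, and falls were 91.7% of the 12, against 31.4% of all tested genes. Among the fallen, MCM3, ORC5 and CDC6 had LPS means of 0.923, 0.636 and 0.407 FPKM. They reached the input mean of 1 FPKM only through their control levels. MCM5, a subunit of the replicative helicase, was at 1.44 and 1.68 FPKM in the LPS libraries, against 15.6 and 29.4 FPKM in the control libraries. The groups did not overlap, although the control libraries themselves differed by nearly the level of control library 1. On the log2(FPKM + 1) scale MCM5 fell by 3.14 (SE 0.29, limma adjusted p = 0.000221).

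The other measured ring subunits fell too. MCM3 was at 0.945 and 0.900 FPKM in LPS and 12.1 and 18.8 FPKM in control libraries (log2 fold change −3.06, SE 0.25, limma adjusted p = 0.000112). MCM2 stood at 2.01 and 1.80 FPKM after LPS, against 12.9 and 21.8 FPKM in control libraries (−2.62, SE 0.26, adjusted p = 0.000319). For each of these genes control library 2 was above control library 1, and both LPS libraries were close together. MCM4 had 1.47 and 1.05 FPKM in LPS, against 7.81 and 9.94 FPKM in control libraries (−2.13, SE 0.22, adjusted p = 0.000385). MCM6 had 1.59 and 1.38 FPKM in LPS, against 6.22 and 6.81 FPKM in control libraries (−1.60, SE 0.20, adjusted p = 0.000916). After LPS the mean levels of the MCM2 to MCM6 genes thus lay between 0.923 and 1.90 FPKM, while in control liver they were spread from 6.52 to 22.5 FPKM.

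The subunits of the origin recognition complex fell to differing degrees. ORC6, its smallest subunit, averaged 1.99 ± 0.238 FPKM in LPS and 11.7 ± 0.315 FPKM in control liver (SD, n = 2 each; log2 fold change −2.09, SE 0.19, limma adjusted p = 0.000227). ORC5 averaged 0.636 ± 0.104 FPKM in LPS and 3.39 ± 0.518 FPKM in control liver (−1.42, SE 0.22, adjusted p = 0.00234). ORC4 averaged 2.02 ± 0.0903 and 5.39 ± 0.0380 FPKM in LPS and control liver (−1.08, SE 0.20, adjusted p = 0.00434). No LPS value of these 3 subunits reached its control values. ORC3 (−0.81, adjusted p = 0.0164), ORC2 (−0.68, adjusted p = 0.0432) and the loading factor CDC6 (−0.98, adjusted p = 0.0374) were called with less margin. At equal medians their adjusted p values were 0.0851, 0.221 and 0.128. The ORC3 call also ended without LPS library 2 (adjusted p = 0.130), that of CDC6 without control library 2 (0.139) and that of ORC2 without any 1 of the 4 libraries (0.0625 to 0.281).

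**Figure D2:**
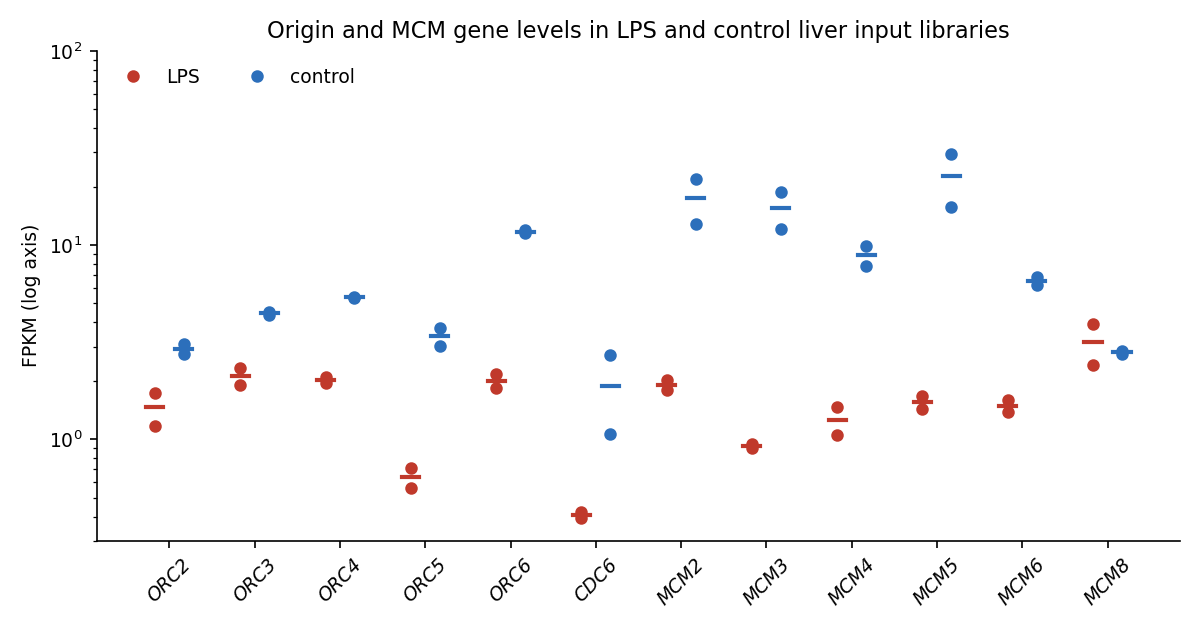
FPKM of the 12 tested origin and MCM genes in each input library (log axis), with LPS libraries in red on the left and control libraries in blue on the right of each gene and bars at the group means (n = 2 each). For 11 genes both LPS points lie below both control points, as for 55.8% of all tested genes, and MCM8 is the exception.

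MCM8, which forms a separate helicase with MCM9 that serves DNA repair, was at 2.41 and 3.90 FPKM in LPS and 2.76 and 2.83 FPKM in control libraries (log2 fold change 0.11, limma adjusted p = 0.740). Its partner MCM9 was under the filter, at 0.142 and 0.109 FPKM in LPS and 1.34 and 1.08 FPKM in control libraries. The members CDC45 and CDC7, which help to activate the loaded helicase, were also under the filter. CDC45, which joins the helicase at the fork, was at 0.0596 FPKM and listed at 0 in the LPS libraries, against 0.452 and 0.488 FPKM in control libraries. CDC7, the kinase that phosphorylates the MCM ring, was listed at 0 in both LPS libraries and at 0.500 and 0.472 FPKM in control libraries. ORC1, under the filter as well, had 0.332 and 0.167 FPKM in LPS and 0.367 and 0.740 FPKM in control libraries.

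DNA polymerase epsilon, which copies the leading strand, split by subunit. The catalytic subunit POLE was at 9.33 and 12.5 FPKM in the LPS libraries and at 1.55 and 2.06 FPKM in the control libraries. It rose 6.04-fold in the mean (log2 fold change 2.08, SE 0.23, limma adjusted p = 0.000447). POLE3, its histone-fold subunit, was at 6.83 and 7.21 FPKM in LPS and 19.4 and 21.5 FPKM in control libraries (−1.42, SE 0.18, adjusted p = 0.000921). POLE2, the accessory subunit, averaged 4.50 ± 0.826 FPKM in LPS and 9.55 ± 1.23 FPKM in control liver (SD, n = 2 each; −0.94, adjusted p = 0.00998, and 0.0606 without LPS library 1). POLE thus stood above POLE2 and POLE3 per length in LPS liver, and below both in control liver.

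Of the 8 tested polymerase and clamp loader genes, 3 fell, 1 rose and 4 were not called, with 2 lower and 1 higher at equal medians. The 3 falls were a share of 37.5%, against 31.4% of all tested genes. The remaining fall was that of RFC4, a subunit of the clamp loader, with 6.67 and 4.14 FPKM in LPS and 9.59 and 12.2 FPKM in control libraries. Its log2 fold change was −0.91 (limma adjusted p = 0.0212), and the call was lost in the shifted libraries (0.0856), without LPS library 2 (0.151) and without control library 2 (0.0941). RFC5 had 17.9 and 18.6 FPKM in LPS, against 23.4 and 41.1 FPKM in control libraries, and was not called (adjusted p = 0.0535). POLD3, a subunit of polymerase delta, had 9.58 and 10.4 FPKM in LPS and 7.25 and 9.55 FPKM in control libraries (0.23, adjusted p = 0.383). RFC3 was under the filter, at 0.0692 and 0.0761 FPKM in LPS and 0.998 and 0.773 FPKM in control libraries.

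Among cyclins, 2 of 7 tested genes fell and 0 rose, with 1 lower and 1 higher at equal medians. The share of falls was 28.6%, where all tested genes had 31.4%. CCND1, the D-type cyclin that pairs with CDK4 and CDK6 in G1, was at 11.2 and 9.33 FPKM in LPS, against 21.6 and 19.7 FPKM in control libraries (log2 fold change −0.95, SE 0.19, limma adjusted p = 0.00590). CCNA2, the S phase cyclin, averaged 0.675 ± 0.146 FPKM in LPS and 2.11 ± 0.332 FPKM in control liver (SD, n = 2 each; −0.89, adjusted p = 0.0170). That call ended at equal medians with 0.0785, without LPS library 1 with 0.0748 and 0.0547 without control library 1. The related CCND2 was at 3.49 and 5.05 FPKM in LPS and at 2.83 and 1.95 FPKM in control libraries, without a call (0.63, adjusted p = 0.0740) except at equal medians (0.91, 0.0256). CCND3 (0.03, adjusted p = 0.930) and the G1/S cyclin CCNE1 (−0.53, adjusted p = 0.0815) were not called.

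CDK18, a kinase of the PCTAIRE family, had the largest change of all members. It was at 0.390 and 0.580 FPKM in the LPS libraries, against 34.0 and 39.2 FPKM in the control libraries. The control mean was 75.6 times the LPS mean, and on the log2(FPKM + 1) scale CDK18 fell by 4.66 (SE 0.20, limma adjusted p = 9.88e-06). Its relative CDK17 averaged 3.13 ± 0.470 FPKM in LPS and 5.51 ± 0.651 FPKM in control liver (SD, n = 2 each; −0.66, adjusted p = 0.0379). For CDK17 the adjusted p was 0.0853 without LPS library 1, 0.265 without LPS library 2, 0.107 without control library 1 and 0.205 in the shifted libraries.

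Of the 12 tested kinases of the CDK family, 4 fell, 2 rose and 6 were not called, with 3 lower and 2 higher at equal medians. This share of falls, 33.3%, lay near the 31.4% of all tested genes. CDK1, which drives entry into mitosis, was at 9.25 and 9.45 FPKM in LPS and 3.83 and 5.08 FPKM in control libraries. This was a rise of 0.93 (SE 0.20, limma adjusted p = 0.00921), while the tested A- and B-type cyclins, which bind CDK1, had log2 fold changes of −0.89 (CCNA2), −0.46 (CCNB2, adjusted p = 0.168) and −0.61 (CCNB3, adjusted p = 0.153). The G1 kinase CDK6, spelt cdk6 in the table, was at 5.71 and 3.19 FPKM in LPS and 13.5 and 13.3 FPKM in control libraries (−1.44, SE 0.25, adjusted p = 0.00363).

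The kinases that act on RNA polymerase II were mixed. CDK9, the catalytic subunit of the elongation factor P-TEFb, had 22.8 and 26.4 FPKM in LPS and 12.5 and 17.8 FPKM in control libraries (log2 fold change 0.68, limma adjusted p = 0.0374). That call ended without LPS library 2 and without control library 1 (adjusted p = 0.137 each). CDK7, the CDK-activating kinase of factor TFIIH, was at 6.74 and 5.59 FPKM in LPS, against 15.8 and 13.0 FPKM in control libraries (−1.10, SE 0.20, adjusted p = 0.00419). CDC2L1, an older name of the CDK11 kinase (−0.09, adjusted p = 0.717), and the elongation kinase CDK12 (−0.29, adjusted p = 0.242) were not called.

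BUB1, the kinase of the spindle assembly checkpoint, had the second largest fall of the members. Its LPS libraries had 0.271 and 0.137 FPKM, against 14.0 and 13.7 FPKM in the control libraries. The difference was 67.7-fold in the means (log2 fold change −3.62, SE 0.20, limma adjusted p = 2.49e-05), far outside the spread of either pair. Its checkpoint partners had other levels. BUB3 was at 18.7 and 18.3 FPKM in LPS and 23.4 and 23.3 FPKM in control libraries and was not called (−0.32, adjusted p = 0.167). BUB1B, the BUBR1 kinase, was under the filter at 0.0725 and 0.0443 FPKM in LPS and 0.360 and 0.148 FPKM in control libraries. The mitotic kinase AURKA, also under the filter, had 0.882 and 0.397 FPKM in LPS and 0.654 and 0.850 FPKM in control libraries, where the groups overlap.

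Of the 7 tested genes of the kinetochore and checkpoint, 5 fell and 0 rose, with 4 lower and 0 higher at equal medians. These falls were a share of 71.4%, against 31.4% of all tested genes. Among the fallen, BUB1, CENPH and CENPK had LPS means of 0.204, 0.528 and 0.516 FPKM. They reached the input mean of 1 FPKM only through their control levels. The 4 fallen centromere proteins all belong to the inner kinetochore. CENPH had 0.730 and 0.326 FPKM in LPS and 2.72 and 3.81 FPKM in control libraries (log2 fold change −1.48, SE 0.25, limma adjusted p = 0.00333). CENPT, which links DNA to the outer kinetochore, averaged 1.73 ± 0.324 FPKM in LPS and 6.52 ± 1.07 FPKM in control liver (SD, n = 2 each; −1.46, SE 0.22, adjusted p = 0.00192). CENPQ averaged 1.59 ± 0.338 FPKM in LPS and 4.80 ± 0.460 FPKM in control liver (SD, n = 2 each; −1.17, adjusted p = 0.00455). CENPK fell by 1.03 (adjusted p = 0.0138, against 0.0504 in the shifted libraries and 0.0770 without LPS library 2). A further 11 of the 16 CENP genes were under the filter, among them CENPN, which recognises centromeric chromatin and was listed at 0 in both LPS libraries, against 0.963 and 0.602 FPKM in control libraries.

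The CDC genes, named after yeast cell division mutants, hold unlike functions, and of 19 tested 7 fell, 1 rose and 11 were not called. The 7 falls were 36.8% of the 19, against 31.4% of all tested genes. At equal medians 3 were lower and 1 higher. CDC23, a scaffold subunit of the anaphase-promoting complex, was at 45.7 and 45.2 FPKM in LPS and 13.3 and 10.8 FPKM in control libraries. It rose by 1.84 (SE 0.18, limma adjusted p = 0.000295), while the members CDC16, CDC20, CDC26 and CDC27, of the same complex or its activator, had log2 fold changes between −0.58 and −0.09 with no call (−0.30 to 0.19 at equal medians). Of 7 tested ANAPC genes, which encode other subunits, ANAPC16 (−1.07, adjusted p = 0.00383), ANAPC2 (−0.94, adjusted p = 0.00612) and ANAPC5 (−0.65, adjusted p = 0.0265) fell and 4 were not called. ANAPC5 was not called at equal medians (0.176), and its adjusted p reached 0.170 without LPS library 2. CDC25A, the phosphatase that activates CDKs at the G1/S step, was at 0.374 and 0.702 FPKM in LPS, against 2.75 and 4.27 FPKM in control libraries (−1.54, SE 0.26, adjusted p = 0.00310).

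CDC42EP1, an effector of the small GTPase CDC42 in actin organisation, was at 6.11 and 8.99 FPKM in LPS and 38.0 and 59.4 FPKM in control libraries (log2 fold change −2.53, SE 0.26, limma adjusted p = 0.000385). CDC42 itself was at 101 and 82.2 FPKM in LPS, inside or near its control values of 96.2 and 106 FPKM (−0.14, adjusted p = 0.547). CDC42EP4 (−0.11, adjusted p = 0.640) was likewise not called. CDC123, an assembly factor of translation initiation factor eIF2, averaged 5.78 ± 0.326 FPKM in LPS and 14.9 ± 0.934 FPKM in control liver (SD, n = 2 each; −1.23, SE 0.18, adjusted p = 0.00185). The other falls were those of CDC37L1 (−0.86), CDC42SE2 (−0.82), the CDC42-binding kinase CDC42BPB (−0.68) and the splicing factor CDC5L (−0.61). In the shifted libraries the adjusted p of these 4 was 0.0616, 0.111, 0.167 and 0.201. Without LPS library 2 it was 0.151 for CDC42SE2, 0.213 for CDC42BPB and 0.140 for CDC5L. Without control library 1 it was 0.0851, 0.101 and 0.0893 for these 3, and the CDC5L value without LPS library 1 was 0.0707.

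Most kinesins are motors that walk on microtubules. Of 32 genes, 15 were tested, 7 fell, 2 rose and 6 were not called, with 2 lower and 3 higher at equal medians. Falls were 46.7% and rises 13.3% of the 15, against 31.4% and 10.7% of all tested genes. At equal medians 15.9% of all tested genes were lower and 14.2% higher. KIF23, the mitotic kinesin of the central spindle, was at 10.1 and 5.35 FPKM in LPS and 2.25 and 1.81 FPKM in control libraries (log2 fold change 1.47, SE 0.29, limma adjusted p = 0.00567). Its LPS libraries differed by almost the level of the lower one, yet both lay above both controls. KIF7, a ciliary regulator of Hedgehog signalling, had 9.61 and 10.7 FPKM in LPS and 4.81 and 5.49 FPKM in control libraries (0.86, adjusted p = 0.00999, and 0.0767 without LPS library 2). KIF4A, a chromosome-bound mitotic kinesin, fell by 0.85 (adjusted p = 0.0433), a call lost at equal medians (0.166), without LPS library 1 (0.0538) or 2 (0.0586) and without control library 2 (0.162).

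The other fallen kinesins were KIF12 (−1.03), KIF13A (−1.03), KIF1B (−0.97), KIF21A (−0.88), KIF13B (−0.83) and KIF2A (−0.64), of which several carry cargo. KIF12 averaged 1.33 ± 0.0385 FPKM in LPS and 3.86 ± 1.35 FPKM in control liver (SD, n = 2 each; limma adjusted p = 0.0143, and 0.0562 at equal medians). Without LPS library 2 the adjusted p was 0.0627 for KIF13A, 0.0699 for KIF1B, 0.145 for KIF21A, 0.129 for KIF13B and 0.148 for KIF2A, and for KIF12 it was 0.0525 without control library 2. KIF2A also lost its call without each of the other libraries (0.0503 to 0.204), KIF21A without control library 1 (0.0758) and KIF13B without control library 2 (0.0541). KIF21A (0.0789), KIF13B (0.0865) and KIF2A (0.221) were not called at equal medians. KIF5B, a cargo motor, had 10.6 and 9.78 FPKM in LPS and 14.7 and 10.4 FPKM in control libraries and was not called (−0.26, adjusted p = 0.361). KIF3A, a motor of cilia, was not called either (0.40, adjusted p = 0.177), but was at equal medians (0.67, 0.0496).

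The 9 members that are partners of a cell cycle protein, or are named after one, gave 3 falls, 1 rise and 5 without a call, with 1 lower and 1 higher at equal medians. Their share of falls was 33.3%, near the 31.4% of all tested genes. CDK5RAP2, a centrosome protein, was at 4.99 and 4.19 FPKM in LPS, against 1.15 and 0.988 FPKM in control libraries, a rise of 1.43 (SE 0.21, limma adjusted p = 0.00186). CDK5RAP3 (−0.93, adjusted p = 0.00710) kept its call with any 1 library left out. CDK2AP1 (−0.90) and AURKAIP1 (−0.72), a protein of the mitochondrial ribosome, did not. CDK2AP1 had an adjusted p = 0.0636 without LPS library 1 and 0.0568 without control library 2, and AURKAIP1 had 0.128 and 0.0827 there, and neither was called at equal medians (0.0795 for CDK2AP1, 0.142 for AURKAIP1). POLDIP2 (−0.48, adjusted p = 0.0852) and CCNDBP1 (0.16, adjusted p = 0.472) were not called.

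The 41 members under the filter were mostly centromere proteins and kinesins, with 11 and 17 genes. Both LPS libraries lay below both control libraries in 23 of them and above both in 2, and 3 were listed at 0 in both LPS libraries and above 0 in both control libraries. Those 3 were CDC7, CENPN and CENPJ, a centriole protein. No test was made on these genes. The same counts were not made over all genes under the filter, so they are no result about the members.

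Reads of neighbouring genes can enter some of these values. In a RefSeq annotation of another assembly (GRCg7b), 48 of the 49 called members were found by name and 20 overlapped another gene. CDC23 overlaps JAKMIP2, KIF7 overlaps PLIN1, CDK9 overlaps FPGS, CDK5RAP2 overlaps MEGF9, KIF12 overlaps VTN, ORC4 overlaps MBD5 and CDC25A overlaps GIMAP7L5. CDK18, BUB1, MCM4 and MCM6 overlap unnamed loci, whereas MCM2, MCM3, MCM5, ORC6, POLE, POLE3, CDK1 and KIF23 overlap none there. The libraries marked strand, but whether the counting used it is not given in the sources used here, so the levels of overlapping genes are uncertain.

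Other genes of these processes, outside the name rule, were also counted, from a list chosen with earlier results of these data known. Of 179 such genes, 150 were found in the table and 112 tested, and 49 fell, 7 rose and 56 were not called, with 29 lower and 8 higher at equal medians. Falls were 43.8% of these genes and 31.4% of all tested genes, and a difference between the shares was not tested. Their median log2 fold change was −0.56. Replication fork genes had the largest share of falls, with 14 of 18, 0 rises and a median of −0.95 (9 lower and 0 higher at equal medians). CHTF18, of an alternative clamp loader, was at 3.71 and 2.04 FPKM in LPS and 26.8 and 27.4 FPKM in control libraries (log2 fold change −2.89, SE 0.24, limma adjusted p = 0.000139). PCNA, the sliding clamp, averaged 19.5 ± 2.34 FPKM in LPS and 46.5 ± 2.91 FPKM in control liver (SD, n = 2 each; −1.21, adjusted p = 0.00179).

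**Figure D3:**
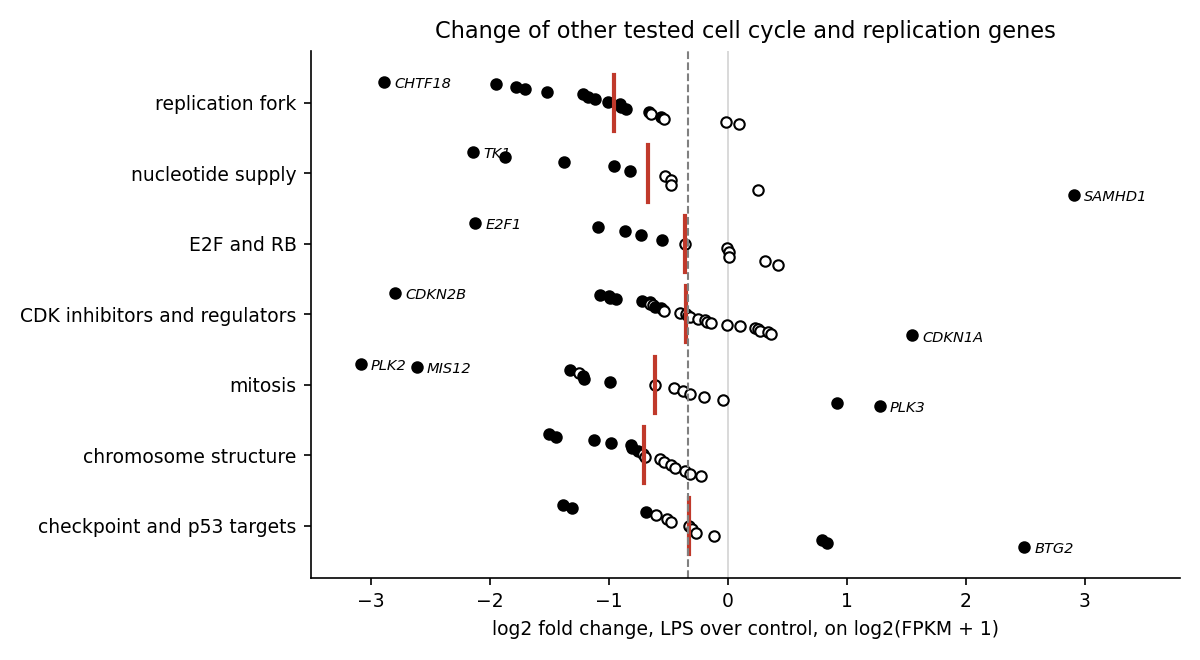
Log2 fold change (LPS over control, on log2(FPKM + 1), horizontal axis) of the 112 tested cell cycle and replication genes outside the name rule, by function. Filled points were called (limma adjusted p under 0.05), red bars are group medians and the dashed line is the median of all tested genes, −0.34. Replication fork genes lie mostly left of the dashed line, and SAMHD1, BTG2 and CDKN1A lie farthest right.

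Of 10 genes of nucleotide supply, 5 fell and SAMHD1 rose (3 lower and 1 higher at equal medians). SAMHD1, an enzyme that breaks down deoxynucleotides, was at 57.7 and 54.8 FPKM in LPS and 6.37 and 6.87 FPKM in control libraries (log2 fold change 2.91, SE 0.17, limma adjusted p = 3.07e-05). Thymidine kinase TK1 was at 3.26 and 3.04 FPKM in LPS, against 15.0 and 19.9 FPKM in control libraries (−2.14, SE 0.21, adjusted p = 0.000268). Of 11 tested E2F and RB genes 5 fell and 0 rose (2 lower and 1 higher at equal medians). Among them was E2F1, an activator of S phase genes, at 2.09 and 2.42 FPKM in LPS and 10.5 and 16.3 FPKM in control libraries (−2.12, SE 0.24, adjusted p = 0.000564). The growth regulator MYC fell by 1.09 (adjusted p = 0.00327). Shares of falls were 50.0% for nucleotide supply and 45.5% for the E2F and RB genes, against 31.4% of all tested genes.

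CDK inhibitors went different ways. CDKN1A, the p21 inhibitor, was at 18.3 and 16.0 FPKM in LPS and 3.96 and 6.68 FPKM in control libraries (log2 fold change 1.55, SE 0.25, limma adjusted p = 0.00238). CDKN2B, an inhibitor of CDK4 and CDK6, was at 12.5 and 8.57 FPKM in LPS, against 72.6 and 83.1 FPKM in control libraries (−2.79, SE 0.21, adjusted p = 9.16e-05). CDKN1B, the p27 inhibitor, was not called (0.11, adjusted p = 0.657). Of the 29 tested inhibitors and regulators, 1 rose and 9 fell (1 higher and 4 lower at equal medians). This was a share of 31.0% falls, about that of all tested genes (31.4%).

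Of 15 tested mitosis genes 6 fell and 2 rose (5 lower and 2 higher at equal medians). The polo-like kinase PLK2 was at 1.24 and 1.55 FPKM in LPS and 20.7 and 17.9 FPKM in control libraries (log2 fold change −3.08, SE 0.20, limma adjusted p = 4.08e-05), while PLK3 rose by 1.28 (adjusted p = 0.00168). The kinetochore genes MIS12 (−2.61, adjusted p = 0.000570) and NSL1 (0.92, adjusted p = 0.00635), whose products sit in 1 complex, moved in opposite directions. The antiproliferative gene BTG2 rose by 2.49 (adjusted p = 0.000107). Checkpoint and p53 target genes as a list had 3 rises and 3 falls of 13 tested (3 higher and 2 lower at equal medians). These falls include a gene deposited under the name STT3A (−1.39, adjusted p = 0.00329). It was taken as CHEK1 by its RefSeq accession, so its place in this list is uncertain. MKI67, a common marker of proliferating cells, was under the filter at 0.192 and 0.145 FPKM in LPS and 0.327 and 0.243 FPKM in control libraries. TOP2A, another such marker, was not called (−0.48, adjusted p = 0.161), and of 16 tested genes of chromosome structure 7 fell and 0 rose (4 lower and 0 higher at equal medians). Shares of falls were 40.0% for mitosis, 43.8% for chromosome structure and 23.1% for checkpoint and p53 target genes. All tested genes had 31.4%, and the differences were not tested.

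The m6A peaks came as 1 list for LPS and 1 for control liver, each called by the authors on IP against input, so no replicate of a peak call exists and no test was made. Fold enrichment (IP over input) is the authors' value for each peak. The members had 42 peaks on 26 genes in the LPS list and 64 peaks on 45 genes in the control list, of 5938 and 7813 peaks in all. A peak was in the LPS list for 25 of the 89 tested members, a share of 28.1%, against 41.0% of all tested genes. In the control list it was 39 of 89, or 43.8%, against 50.5% of all tested genes.

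Of the 46 members with a peak, 25 were in both lists, 20 in the control list alone and 1, CDK5RAP2, in the LPS list alone. Genes in the control list alone made up 43.5% of members with a peak and 25.8% of all genes with a peak. The tested members with a peak in the control list alone had a median of 1.56 FPKM in LPS and 6.52 FPKM in control liver, and 10 of these 15 had fallen. The 24 tested members with peaks in both lists had medians of 11.1 FPKM in LPS and 14.4 FPKM in control liver, and 7 had fallen. Of all 3578 tested genes with peaks in both lists, 1051 had fallen. The median LPS level was thus lower in the members with a peak in the control list alone, and the part of RNA level in peak detection was not tested. Of all 1215 tested genes with a peak in the control list alone, 636 had fallen, and their medians were 3.78 FPKM in LPS and 7.29 FPKM in control liver. Many falls came without any peak: 25 of the 49 tested members with a peak in neither list had fallen. Among all 4382 tested genes with a peak in neither list, 1275 had fallen.

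**Figure D4:**
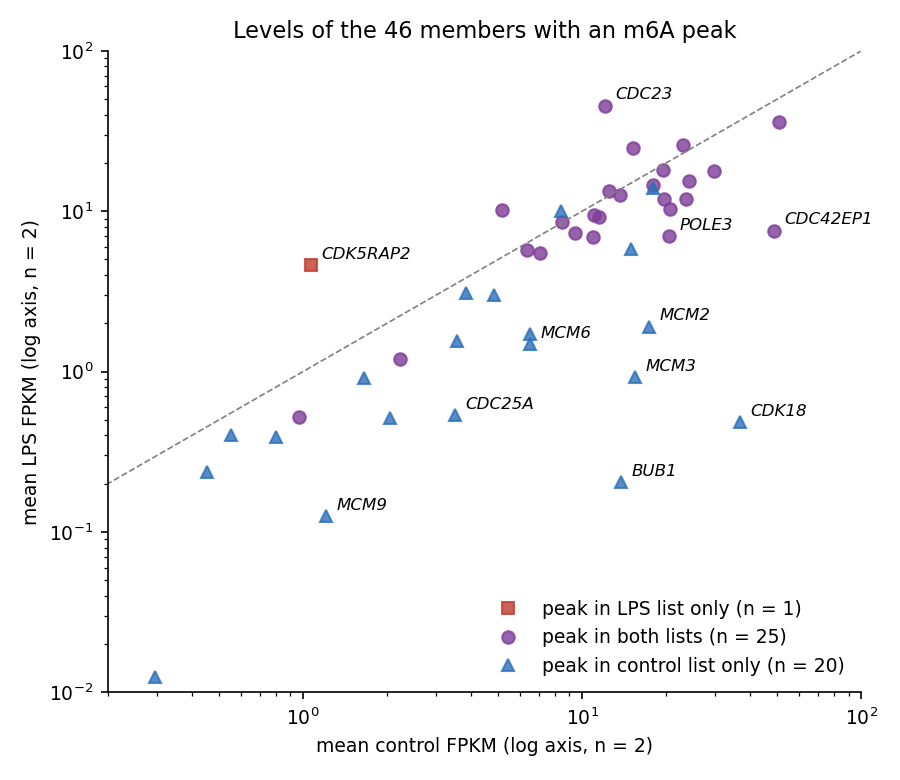
Mean LPS FPKM (vertical log axis, n = 2) against mean control FPKM (horizontal log axis, n = 2) of the 46 members with an m6A peak, with the dashed line at equal levels. Red square, peak in the LPS list alone, purple circles, in both lists, blue triangles, in the control list alone. CDK18, BUB1, MCM2 and MCM3 are triangles far below the line, and CDK5RAP2 is the square above it.

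The 4 MCM genes with a peak had it in the control list alone. MCM3 had 3 peaks in the control list. The strongest, annotated to exon 14 of 18 and made up of 4 blocks, had a fold enrichment of 12.0. It lay at chr3:107176463-107177695 on the plus strand in the authors' coordinates (build not given in the sources used here). Its other peaks, in exon 13 and the 3′ UTR, had fold enrichments of 1.59 and 2.85. MCM2 had 1 peak of 3 blocks, annotated to exon 2 of 16, with a fold enrichment of 7.63 (chr12:9735390-9736547, minus strand). MCM6 had 1 in its 3′ UTR with 3.42. MCM4 and MCM5, at 8.87 and 22.5 FPKM in control liver, had a peak in neither list. MCM9, at 1.21 FPKM in control liver, had 2 control peaks with fold enrichments of 3.54 and 3.48. No ORC gene had a peak.

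Some other strongly fallen members had peaks in the control list alone, whereas CENPH and CDK6 had a peak in neither list. BUB1 had 2 peaks in its 3′ UTR with fold enrichments of 2.74 (chr3:3056834-3057044, plus strand) and 1.67. CDK18 had 1 peak that starts in exon 1 of 15 with a fold enrichment of 2.06, and CDC25A had 1 in its 3′ UTR with 13.4 (chr2:577793-578272, plus strand). CENPT, with a peak in exon 7 of 13, had a fold enrichment of 4.67, and CDC123, with a peak in the 3′ UTR, had 2.49. All of these values describe the control list, and in the LPS list the genes have no entry.

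Among the fallen genes, 7 had a peak in both lists. CDC42EP1 had 2 peaks in the LPS list, annotated to exons 2 and 1 of 3, with fold enrichments of 21.9 and 15.0. In the control list CDC42EP1 had 1 peak of 33.2 that covers both. Its mean level after LPS was 7.55 FPKM, and whether level bears on peak detection was not tested. POLE3, at 7.02 FPKM after LPS, had a 3′ UTR peak in both lists, with fold enrichments of 12.6 in the LPS list and 8.50 in the control list. Of the risen genes, POLE, CDK1 and KIF23 had no peak in either list. CDC23 had a 3′ UTR peak in both lists (13.9 in the LPS list, 12.1 in the control list) and, in the LPS list alone, a second in exon 1 of 16 with a fold enrichment of 4.16 (chr13:17554691-17554780, minus strand). CDK5RAP2 had its only peak, in exon 41 of 48, in the LPS list with a fold enrichment of 2.72.

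The kinases of transcription CDC2L1, CDK9 and CDK13 were among the members with the highest enrichment. Others of that group, CDK7, CDK8 and CDK19, had a peak in neither list. In the LPS list the 5 highest were CDK10 (70.5, 3′ UTR), CDC2L1 (54.1, 10 blocks annotated to exon 1 of 19), CDC34 (32.1, 3′ UTR), CDK9 (22.2, 3′ UTR) and CDC42EP1 (21.9). Of these CDK9 had risen and CDC42EP1 fallen. In the control list they were CDK10 (218, 3′ UTR), CDC2L1 (35.7), CDC42EP1 (33.2), CDK13 (28.7, exon 3 of 16) and CDC34 (27.9). CDC34 is a ubiquitin-conjugating enzyme, and CDK13 and CDK12 are elongation kinases. CDK13 had 4 peaks in each list, and KIF7 had 5 in the LPS list and 4 in the control list.

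**Figure D5:**
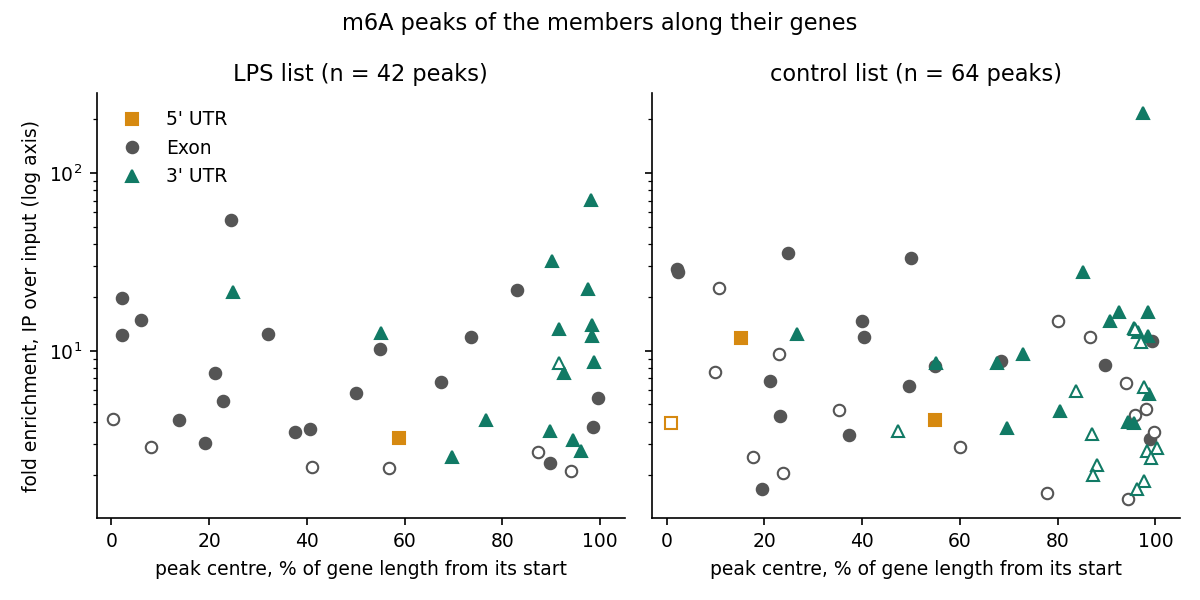
Fold enrichment (IP over input, log axis) of each member peak against the position of its centre, as a percentage of gene length from the gene's start, in the LPS list (left, 42 peaks) and the control list (right, 64 peaks). Symbols give the annotated region, filled symbols overlap a peak of the other list and open symbols do not. Most 3′ UTR peaks sit at the far end, and the open symbols are more numerous in the control list (30) than in the LPS list (7).

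The regions of the member peaks were counted beside those of all peaks, with no test of a difference. In the LPS list 16 were in a 3′ UTR, 1 in a 5′ UTR and 25 in another exon, shares of 38.1%, 2.38% and 59.5%, against 42.2%, 7.09% and 50.7% of all LPS peaks. In the control list 30, 3 and 31 were, shares of 46.9%, 4.69% and 48.4%, against 45.2%, 7.67% and 47.1% of all control peaks. The median fold enrichment was 6.23 for member peaks of the LPS list, where all LPS peaks had 4.99, and 6.48 for those of the control list, where all control peaks had 5.51. Of the LPS member peaks, 35 overlapped a control peak by at least 1 base of exon, a share of 83.3% (87.6% of all LPS peaks). Of the control member peaks, 34 overlapped an LPS peak, a share of 53.1% (64.1% of all control peaks).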

How the data were processed

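The submitters' processing notes name HISAT2, StringTie, HOMER and ChIPseeker, without roles or versions. Which build, peak caller and peak filters were used is not given in the sources used here. Input levels were deposited by the authors as FPKM per library. Each peak has the authors' fold enrichment, the ratio of IP over input, and the authors' p-value, in a single list per treatment. Headers say "Treat", which was read as LPS because the labels name no other treatment. A repeated entry, 1 in each list, was dropped.

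Members were found by gene name. limma 3.58.1 (R 4.3.3) with a trended prior variance compared LPS with control input, 2 against 2, on log2(FPKM + 1), which understates changes of low genes, for genes whose 4 input libraries averaged 1 FPKM or more. limma was also run on simulated data, with independent values, spreads shuffled among genes and no shift common to all genes. That run cannot speak to such a shift in the real libraries. Peaks were shared if exon blocks overlapped by 1 base on a strand (Python 3.11.15). Pathway symbols were matched by name or RefSeq accession. Named genes were BUB1, MCM5, CDK18 and all called members, with full values for the 25 of largest change and those of particular note, up to 2 uncalled members of highest level per role, and up to 5 called pathway genes each way with 6 fixed ones. RFC3, CENPN, MCM9 and other members under the filter, CCND2, CCNB2, CCNB3, KIF3A and the APC and ANAPC genes were chosen after their values were seen. Alternatives were a pseudocount of 0.1, no filter, equal medians, a replicate block, no trend, each library left out, fold enrichment of at least 3 and an overlap of 50%. Members and lists were chosen with earlier results of these data known. Promoter and protein sequences were not used here. MCM7 was not analysed here.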

Additional observations from a re-analysis of the deposited data

How the results depend on the processing

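Directions of the called members held under every alternative run on the FPKM values, and 26 of 49 calls passed in all of them. At equal medians 1508 of all tested genes were lower, with 24 of the members and 29 of the other pathway genes, and 3 CDC genes, 1 cyclin, 2 kinesins and 1 gene of the partners and namesakes. In that setting 18 of the 49 calls ended, without the filter 10 did, and with a pseudocount of 0.1 or no trend 0 did. Calls that ended without the filter were those of CDC6, ORC2, RFC4, CDK9, CDK17, KIF2A, KIF4A, KIF21A, CDC42BPB and CDC42SE2. Their limma adjusted p was 0.0516 to 0.0783 there. With 1 library left out, falls ranged from 2097 to 2494 over all tested genes, 30 to 37 for members, 9 to 10 for pre-replication genes, 4 to 8 for CDC genes, 1 to 3 for cyclins, 1 to 5 for kinesins and 1 to 4 for the partners and namesakes. Such a fit assumes that the lone library of a group varies like the others. Leaving out LPS library 2 ended 16 calls, and leaving out each of the others ended 9. With the replicate number as a block, which the labels do not tie to a shared bird or day, 7 members rose and 44 fell and 0 calls ended. The deviations of same-numbered libraries had a correlation of 0.03 over genes. Requiring a fold enrichment of at least 3 left 34 member peaks, 32 of them shared, in the LPS list and 51, 33 of them shared, in the control list, and an overlap of 50% of the shorter peak left 35 and 34 shared. With no read totals, low FPKM, such as those of CENP genes, limit what can be seen.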

Other observations

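In some members the libraries of 1 group differed more than the group means, and CCNE2 and CenpA are examples. CCNE2, the second E-type cyclin, was at 0.233 FPKM in LPS library 1 and 2.25 FPKM in LPS library 2, against 0.382 and 0.372 FPKM in the control libraries. CenpA, the histone variant that marks centromeres, was at 0.594 and 1.98 FPKM in LPS and 0.771 and 0.814 FPKM in control libraries. Control libraries also differed for replication genes. CDC6 was at 0.393 and 0.421 FPKM in LPS and 1.06 and 2.71 FPKM in control libraries. RRM2, a subunit of ribonucleotide reductase, was at 0.936 and 0.704 FPKM in LPS and 3.63 and 8.52 FPKM in control libraries. MCM2, MCM3, MCM4, MCM5, MCM6, CDC6 and E2F1 were each higher in control library 2 than in control library 1. These genes and libraries were chosen after their values were seen.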
